A study of Mus musculus with 74 samples.

Results

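The effect of targeting p53 (the gene Trp53) on lung tumours was followed across its partner genes in a pooled pair-of-guides experiment in mice. Members were all tumours whose construct carried a p53 guide in place 1 or place 2, leaving out constructs with 1 guide in both places as well as spike-in and NE entries. They numbered 64159 of the 342937 tumours used (18.7%), and p53 was 1 of 17 targeted genes, with 2 of 33 guides. Of these tumours, 8610 carried p53 beside an inert guide, 1608 carried both p53 guides, and 41994 carried p53 beside one of the 14 partner genes described here. The combination of p53 with Rb1 was left out by the rule that chose the members. The reference genotypes were tumours with inert guides in both places (inert/inert, 2973 tumours) and tumours with a partner guide beside an inert one (partner/inert). Inert guides were those named safe, NT and EGFP.

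All mice carried the same tumour-starting background, called KT in the labels, which includes the reporter allele R26 LSL-Tomato. They received the lentiviral pool Lenti-U6BC-sgDbl/Cre, in which each virus held Cre, a barcode and a pair of guides, and lungs were taken about 3 months later. The 9 KT mice had no Cas9, so the guides could not cut in them. The 45 H11-Cas9 mice carried Cas9, and the 20 H11-LSL-Cas9 mice carried Cas9 behind a stop cassette that Cre must first remove. Those genotypes are the ones given for each mouse, while the shared protocol text names an LSL form of Cas9 for both groups. Age, sex and viral dose are not stated for them. A tumour is 1 barcode in the DNA of a whole lung, with its size in cells estimated by the authors from spike-ins, and the smallest listed had 50.1 cells. The table holds no expression data, so neither the loss of p53 protein nor the share of cut alleles was measured.

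p53 is a transcription factor that is stabilised by DNA damage and oncogene signalling and that switches on genes for cell cycle arrest, cell death and senescence. It is among the genes most often lost in human lung adenocarcinoma, and in mouse models its loss is known to allow lung adenomas to progress to adenocarcinoma. The partners act in other routes: Nf1 and Rasa1 are GTPase-activating proteins, Apc and Rnf43 restrain Wnt signalling, Lkb1 (Stk11) is a kinase upstream of AMPK, Keap1 restrains NRF2, Setd2, Kmt2a, Kmt2b, Kat7 and Meaf6 belong to the chromatin machinery, Ccnl1 and Ccnl2 are cyclins of RNA processing, and Pcna is the sliding clamp of DNA replication.

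Depth differed between the groups. Tumours per mouse spanned 13191 to 41166 in the KT group, 1013 to 5364 with H11-Cas9 and 4 to 4941 with H11-LSL-Cas9. One read stood for a median of 4.82, 7.96 and 12.9 cells in these groups. The estimated total of the spike-ins was near 100000 cells in 5 KT and 25 H11-Cas9 mice and near 300000 cells in 4 KT, 20 H11-Cas9 and all 20 H11-LSL-Cas9 mice, and it is treated below as a possible batch.

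Tumours with p53 targeted beside an inert guide were larger than inert/inert tumours of the same mouse in the H11-Cas9 group. In those 45 mice the mean log2 size of p53/inert tumours ran from 7.07 to 9.25 with a median of 7.81, and that of inert/inert tumours from 6.75 to 8.62 with a median of 7.50. The 2 ranges overlapped widely between mice, and the difference within mice was what separated them: it was lowest at -0.30, 0.23 at the median and 1.02 at the highest, and it was above 0 in 38 of 45 mice. Its mean was 0.29 ± 0.05 (SE, n = 45 mice), a 1.22-fold larger geometric mean size (2-sided sign flips over mice, adjusted p = 4.25e-05 over the 17 genes, of which 64.7% passed as larger). In the 9 KT mice the same difference ran from -0.23 to 0.25 with a median of 0.03, and its mean was 0.02 ± 0.06 (6 of 9 mice above 0, exact sign flips, p = 0.82, with 0% of the 17 genes passing). The smallest p that sign flips of 9 mice can give is 0.00391, so in KT mice 1 gene, step or interaction alone could not pass after adjustment, and counts of 0 passing there carry little weight. The H11-Cas9 effect exceeded the KT effect by 0.28 ± 0.07 (adjusted p = 0.0244, studentised permutation of mouse labels, 29.4% of the 17 genes passing).

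In the H11-LSL-Cas9 group the p53 effect beside inert did not pass the test. It ran from -0.72 to 0.86 with a median of 0.11 over the 17 mice that had at least 5 tumours of each kind, and 10 of the 17 were above 0. Its mean was 0.08 ± 0.08 (adjusted p = 0.839, with 5.88% of the 17 genes passing as larger). The difference of 0.21 ± 0.09 between the H11-Cas9 and the H11-LSL-Cas9 effect had p = 0.0347 and an adjusted p of 0.0983 (17.6% of genes passing), so the lower value in the LSL group was not shown to differ from that in H11-Cas9 mice. Among H11-Cas9 mice the effect was 0.37 in those with a spike-in total near 100000 and 0.20 in those with a total near 300000, and it passed in both (adjusted p = 5.67e-05 and 0.0131). The LSL mice all had the higher total. Between mice of that total alone the difference between the Cas9 groups was 0.12 ± 0.10 (adjusted p = 0.499).

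**Figure D1:**
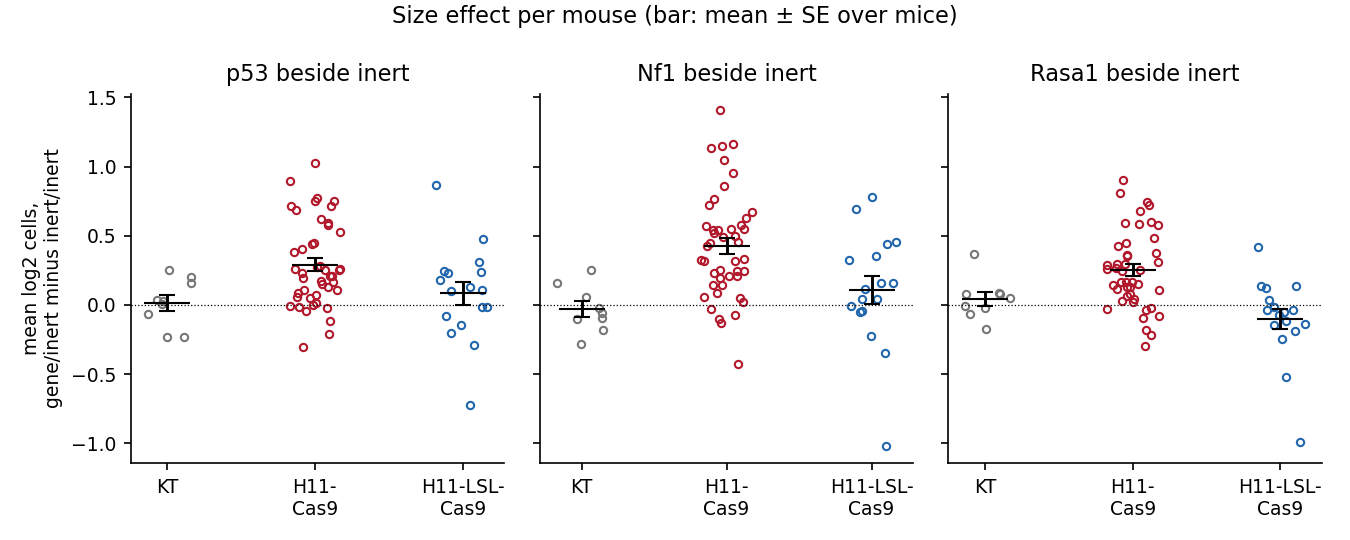
Size effect of p53, Nf1 and Rasa1 beside an inert guide, as the difference in mean log2 cells from inert/inert tumours of the same mouse (y axis), by group of mice (x axis: KT, H11-Cas9, H11-LSL-Cas9). Each circle is 1 mouse and each bar with whiskers is the mean ± SE; for p53 the H11-Cas9 mean is 0.29, against 0.02 in KT and 0.08 in H11-LSL-Cas9.

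The gain in size of p53/inert tumours was small at the median and wider among large tumours. Over the pooled tumours of the H11-Cas9 mice, the median p53/inert tumour had 183 cells and the median inert/inert tumour 164 cells. The 75th percentiles were 403 and 323 cells, the 90th 946 and 655 cells, and the 95th 1732 and 1112 cells. As a log2 ratio this was 0.16 ± 0.05 at the 50th percentile, 0.32 ± 0.08 at the 75th, 0.53 ± 0.12 at the 90th and 0.64 ± 0.15 at the 95th (jackknife SE over 45 mice). Listed sizes began at 50.1 cells, and 65.7% of p53/inert and 59.6% of inert/inert tumours had at least 128 cells. Whether this floor narrowed the gap at the median was not tested, and the percentiles were not compared with each other by a test. Tumours of at least 1000 cells made up 9.38% of 3487 p53/inert tumours and 5.60% of 1107 inert/inert tumours. Within the 33 H11-Cas9 mice that held at least 20 tumours of each kind, that share was higher by 4.06 ± 0.93 percentage points, and it was higher in 28 of 33 mice (adjusted p = 0.00018 over 12 genes, of which 83.3% passed).

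The KT and LSL groups give the same measure without Cas9 and with the conditional allele. In KT mice 668 of 3918 and 251 of 1466 tumours had that size (a difference of -0.89 ± 1.37 percentage points within mice, 0% of 17 genes passing), and the log2 ratio at the 95th percentile was -0.02 ± 0.13, so the 2 genotypes could not be told apart there. In H11-LSL-Cas9 mice the shares were 7.63% of 1205 p53/inert tumours and 4.75% of 400 inert/inert tumours. The log2 ratio in that group was 0.02 ± 0.12 at the median, 0.45 ± 0.21 at the 90th percentile and 0.76 ± 0.43 at the 95th. Within the 9 LSL mice with enough tumours the share differed by 1.20 ± 1.63 percentage points (6 of 9 higher, exact sign flips, adjusted p = 0.989, 0 of 12 genes passing).

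**Figure D2:**
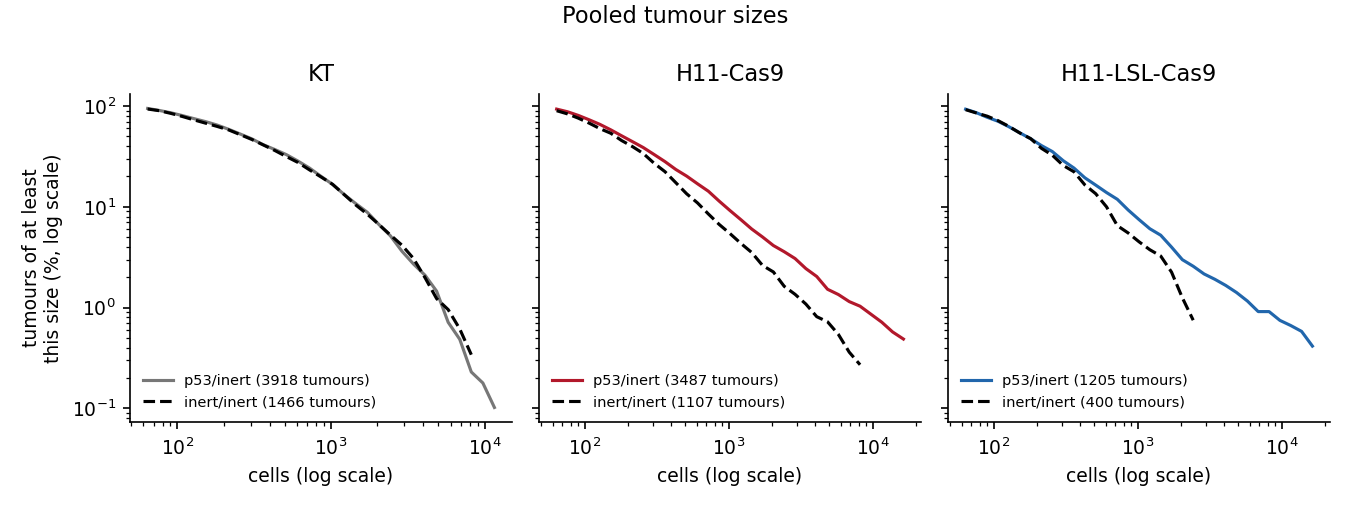
Share of pooled tumours (y axis, percent, log scale) that had at least a given number of cells (x axis, log scale), for p53/inert (solid) and inert/inert (dashed) tumours in each group of mice. The curves lie on each other in KT and part in H11-Cas9 mice, where 9.38% of p53/inert and 5.60% of inert/inert tumours had at least 1000 cells; points backed by under 3 tumours are not drawn.

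Both p53 guides gave the size effect, and they are 2 tools for 1 gene, not replicates. In H11-Cas9 mice guide V1 gave 0.31 ± 0.06 and guide V2 0.27 ± 0.05, and they differed by 0.03 ± 0.05 within mice (24 of 45 mice above 0, p = 0.518). Matched by the other guide and the place over all partners, the difference was -0.01 ± 0.02 (11221 and 11741 tumours, 22 of 45 mice above 0, p = 0.531). With p53 in place 1 the effect was 0.34 ± 0.05 and in place 2 it was 0.20 ± 0.06. The difference between places of 0.14 ± 0.05 had an unadjusted p of 0.0109 but did not pass after adjustment over the 5 comparisons of guides and places (adjusted p = 0.0547, 28 of 45 mice above 0). Place 1 was lower by 0.06 in KT mice, where 1 of 9 mice was above 0 (difference -0.06 ± 0.02, exact sign flips, adjusted p = 0.156). Constructs with both p53 guides were larger than inert/inert by 0.44 ± 0.08, against 0.29 for p53/inert, a difference of 0.15 ± 0.07 that did not pass (adjusted p = 0.0863, 26 of 45 mice). The effect beside the safe guides was 0.31 ± 0.05 (3107 tumours). Beside NT or EGFP it was 0.14 ± 0.10 and did not pass (380 tumours, 37 mice, sign flips, unadjusted p = 0.155). The effects beside the 2 sets of inert guides differed by 0.17 ± 0.09 in the 37 mice that had both (adjusted p = 0.0863).

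The p53 effect was set beside those of Nf1 and Rasa1. In H11-Cas9 mice Nf1 beside inert gave 0.43 ± 0.06 and Rasa1 0.25 ± 0.04. Ccnl1 at 0.27 ± 0.08 and Lkb1 at 0.27 ± 0.09 lay nearer to p53 and were not compared with it by a test. The p53 effect was lower than that of Nf1 by 0.14 ± 0.04 in the same mice, with 13 of 45 mice above 0 (adjusted p = 0.00616 over the 2 comparisons), and differed from that of Rasa1 by 0.04 ± 0.04 (21 of 45 mice above 0, adjusted p = 0.381). Of these 3 genes Nf1 thus lay above p53, and p53 and Rasa1 were not separated beyond their spread. These differences share the inert/inert tumours of each mouse, which cancel in them. With the median in place of the mean of log2 cells, the gap to Nf1 was -0.05 and no longer passed (adjusted p = 0.441).

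When p53 was targeted beside a partner, the added size was mostly smaller than beside an inert guide. The step is the mean log2 size of p53/partner tumours minus that of partner/inert tumours in the same mouse. In H11-Cas9 mice 13 partners had at least 2 mice with 5 tumours of each kind (Meaf6 had none). The p53 step had a median of 0.04 over the 13, with 8 above 0 and 5 below. It passed as an increase beside 2 of the 13 partners, Rnf43 and Rasa1, and as a decrease beside 0 of 13. Of all 212 steps in H11-Cas9 mice, 8.96% passed as increases and 2.83% as decreases, with 46 at an unadjusted p under 0.05 in either direction. The median step for Nf1 over 14 partners was 0.11, against 0.43 beside inert, and for Rasa1 0.06, against 0.25. A small step beside partners was thus not particular to p53.

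Rnf43, a ubiquitin ligase that removes Wnt receptors, and Rasa1, a GTPase-activating protein, were the partners beside which adding p53 passed. Beside Rnf43 the p53 step ran from -0.40 to 0.97 with a median of 0.20 over 45 mice, from 2340 p53/Rnf43 and 2537 Rnf43/inert tumours. Most mice were above 0 (33 of 45), and the mean was 0.21 ± 0.04 (adjusted p = 0.00053). The share of tumours of at least 1000 cells was also higher, by 2.59 ± 0.82 percentage points in 43 mice (31 higher, adjusted p = 0.0347, 10.6% of 94 steps passing). Beside Rasa1 the step ran from -0.40 to 0.87 with a median of 0.19, from 2437 and 2604 tumours, and 30 of 45 mice were above 0. Its mean was 0.16 ± 0.04 (adjusted p = 0.0118), while the share of large tumours differed by 0.72 ± 0.91 percentage points and did not pass (adjusted p = 0.733).

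Neither call passed in every smaller set of mice or against KT. Smaller sets and the 9 KT mice give less power, so a step that did not pass there was not shown to be absent. In the H11-Cas9 mice with a spike-in total near 100000 the steps were 0.26 beside Rnf43 (adjusted p = 0.015) and 0.21 beside Rasa1 (adjusted p = 0.0705). In those with a total near 300000 they were 0.14 and 0.09 (adjusted p = 0.161 and 0.37). As a difference from the 9 KT mice they were 0.15 ± 0.07 and 0.16 ± 0.07 and did not pass (adjusted p = 0.199 and 0.144, 5.19% of 212 steps passing).

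Beside the other partners the p53 step did not pass. Beside Nf1, the other GTPase-activating protein, it was 0.11 ± 0.06 in 45 mice (29 above 0, adjusted p = 0.224), and beside Apc, a scaffold of the complex that degrades beta-catenin, it was -0.01 ± 0.07 in 44 mice. Beside Lkb1 and Keap1 it was 0.02 ± 0.09 and -0.01 ± 0.07 in 45 mice each. Among the chromatin genes it was 0.06 ± 0.06 for Setd2, a histone methyltransferase, and between 0.04 and 0.18 for Kat7, Kmt2a and Kmt2b, which rested on 15, 34 and 9 mice. For the cyclins it was -0.16 ± 0.13 beside Ccnl1 and -0.01 ± 0.09 beside Ccnl2. The lowest value was -0.32 ± 0.17 beside Pcna, where 5 of 6 mice were below 0 (exact sign flips, adjusted p = 0.344). Only 135 p53/Pcna tumours were listed in the 45 mice, from 0 to 8 in a mouse, so few mice entered.

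In H11-LSL-Cas9 mice 0 of 14 p53 steps passed, where 2.76% of 217 steps did in either direction. One of the 14 had an unadjusted p under 0.05 by sign flips. It was the step beside Rasa1, the highest of the group at 0.19 ± 0.08, with 14 of 18 mice above 0 (unadjusted p = 0.0304, adjusted p = 0.274). The step beside Rnf43 was 0.13 ± 0.07 (13 of 18 mice above 0, adjusted p = 0.552). Neither was shown to differ from its H11-Cas9 counterpart (H11-Cas9 minus H11-LSL-Cas9 differences of -0.03 ± 0.09 and 0.08 ± 0.09, adjusted p = 0.998 and 0.9, 0.99% of 202 steps passing). The lowest step was -0.36 beside Meaf6, from 2 mice. In KT mice 0 of 14 steps passed, 0 of 14 had an unadjusted p under 0.05 by sign flips, and the values lay between -0.08 and 0.20.

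**Figure D3:**
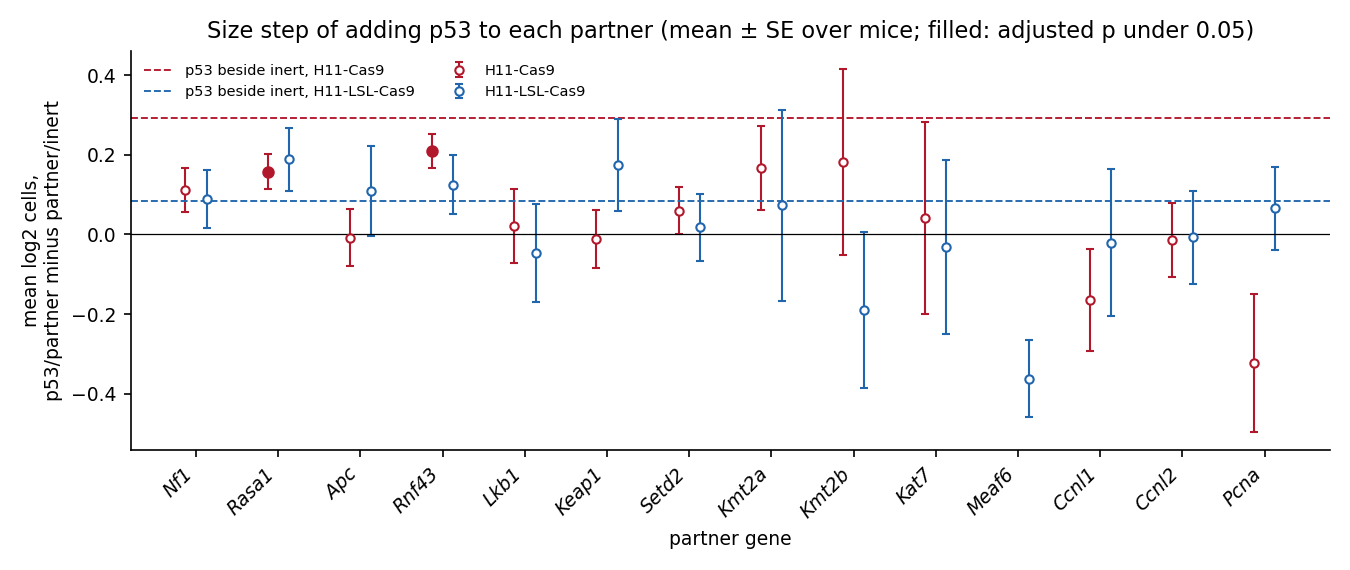
Size step of adding p53 to each partner (y axis, mean log2 cells of p53/partner minus partner/inert tumours, mean ± SE over mice) by partner gene (x axis), in H11-Cas9 and H11-LSL-Cas9 mice; filled points passed at an adjusted p under 0.05 and dashed lines mark p53 beside inert. The filled points are Rasa1 at 0.16 and Rnf43 at 0.21 in H11-Cas9 mice, both below the line at 0.29.

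The reverse step, adding a partner to p53, differed by partner. Nf1 raised the size of p53 tumours by 0.25 ± 0.05 (34 of 45 mice above 0, adjusted p = 0.000942) and Rasa1 by 0.12 ± 0.03 (30 of 45, adjusted p = 0.0133). Keap1, the adaptor that marks NRF2 for degradation, lowered it by 0.27: the step was -0.27 ± 0.06, below 0 in 38 of 45 mice (adjusted p = 0.00127). Adding Pcna gave -0.71 ± 0.08, below 0 in all 8 mice that could be compared, and stayed above the threshold (exact sign flips, adjusted p = 0.0552). Thus 2 of 13 partners passed as increases and 1 of 13 as a decrease, out of the same 212 steps as above. The largest pairs against inert/inert tumours were p53 with Nf1 at 0.54 ± 0.06 (44 of 45 mice above 0) and p53 with Rasa1 at 0.41 ± 0.05 (42 of 45), both at an adjusted p of 6.62e-05. With Rnf43, Lkb1 and Setd2 they made 5 of 13 pairs that passed as larger than inert/inert, where 35.8% of 106 pairs did. The increases did not pass in smaller sets of mice or against KT, which give less power, so they were not shown to be absent there. Within either spike-in total 0 of 13 partners passed as higher. As a difference from KT Nf1 was 0.23 ± 0.08 and Rasa1 0.10 ± 0.06 (studentised permutation of mouse labels, unadjusted p = 0.0168 and 0.114, adjusted p = 0.127 and 0.355). Against KT, Keap1 and Pcna passed as decreases (-0.30 ± 0.08 and -0.78 ± 0.09, adjusted p = 0.0447 and 0.00318), while within either total 0 passed as lower. In H11-LSL-Cas9 mice 0 of 14 partner steps passed, and 2 had an unadjusted p under 0.05 by sign flips. Adding Keap1 to p53 gave 0.05 ± 0.10 there, and its difference from the H11-Cas9 value was -0.32 ± 0.11 (unadjusted p = 0.00741, adjusted p = 0.214, 0.99% of 202 steps passing).

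An interaction sets the size gain of p53 with a partner against the gains of each alone added together, mouse by mouse, which equals the p53 step beside the partner minus the p53 effect beside inert. In H11-Cas9 mice all 13 p53 interactions were below 0, with a median of -0.23. Over all 106 pairs 92 were below 0, with a median of -0.21, so the sign was that of the table as a whole. All p53 interactions in a mouse use the same p53/inert and inert/inert tumours, so they are not independent of each other. Of the 13, 5 passed as negative, where 20.8% of the 106 did. The count was 8 at an unadjusted p under 0.05.

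The 5 were Ccnl1, Ccnl2, Apc, Keap1 and Setd2. For Ccnl1 the interaction ran from -2.39 to 1.35 with a median of -0.47 over 32 mice, 22 of them below 0, and its mean was -0.47 ± 0.14 (adjusted p = 0.0157). It rested on 296 p53/Ccnl1 tumours, with a median of 6 in a mouse. For Ccnl2 the mean was -0.31 ± 0.11 (28 of 44 mice below 0, adjusted p = 0.0381). For Apc it was -0.30 ± 0.09 (30 of 44, adjusted p = 0.0132), for Keap1 -0.30 ± 0.09 (31 of 45, adjusted p = 0.0107) and for Setd2 -0.23 ± 0.08 (31 of 45, adjusted p = 0.0193). Per mouse the Apc, Keap1 and Setd2 values reached from -2.30 to 0.89, from -1.54 to 0.92 and from -2.04 to 1.08, so single mice lay on both sides of 0. Lkb1 had -0.27 ± 0.10 and missed the threshold (adjusted p = 0.0516). The weakest were Kmt2b at -0.04 ± 0.20, from 9 mice (exact sign flips, adjusted p = 0.96), and Kat7 at -0.08 ± 0.24.

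None of the 5 calls passed in every setting. As a difference from the 9 KT mice they were between -0.60 and -0.23 and 0 of 13 passed, with adjusted p from 0.255 to 0.397 for the 5, where 1.89% of 106 pairs did. With the median of log2 cells 0 of 13 passed. Of the mice split by spike-in total, those near 100000 gave 4 of 12 as passing and those near 300000 gave 0 of 13, with Apc at -0.51 in the former and -0.05 in the latter. Taken relative to the median interaction of all pairs in the same mouse, they were between -0.26 and -0.02 and 0 of 13 passed. In the share of tumours of at least 1000 cells, Apc (-5.81 ± 1.71 percentage points, 17 mice) and Keap1 (-4.97 ± 1.55, 30 mice) passed as negative. Their adjusted p by sign flips was 0.00947 and 0.0106, where 51.1% of 47 pairs passed. Rasa1 passed too (-3.58 ± 1.41, adjusted p = 0.0365), while Setd2, Ccnl2, Nf1, Rnf43 and Lkb1 did not. A further comparison used no inert/inert tumours and set each p53 step against the median p53 step of the mouse. By it, 0 of 13 partners passed (0.943% of 212 steps did). The lowest unadjusted p values were those of Keap1, at -0.15 ± 0.06 (p = 0.0193, adjusted p = 0.345), and Ccnl1, at -0.30 ± 0.13 (p = 0.0242, adjusted p = 0.366), and the lowest value was that of Pcna, at -0.45 ± 0.18 in 6 mice (exact sign flips, p = 0.0625).

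**Figure D4:**
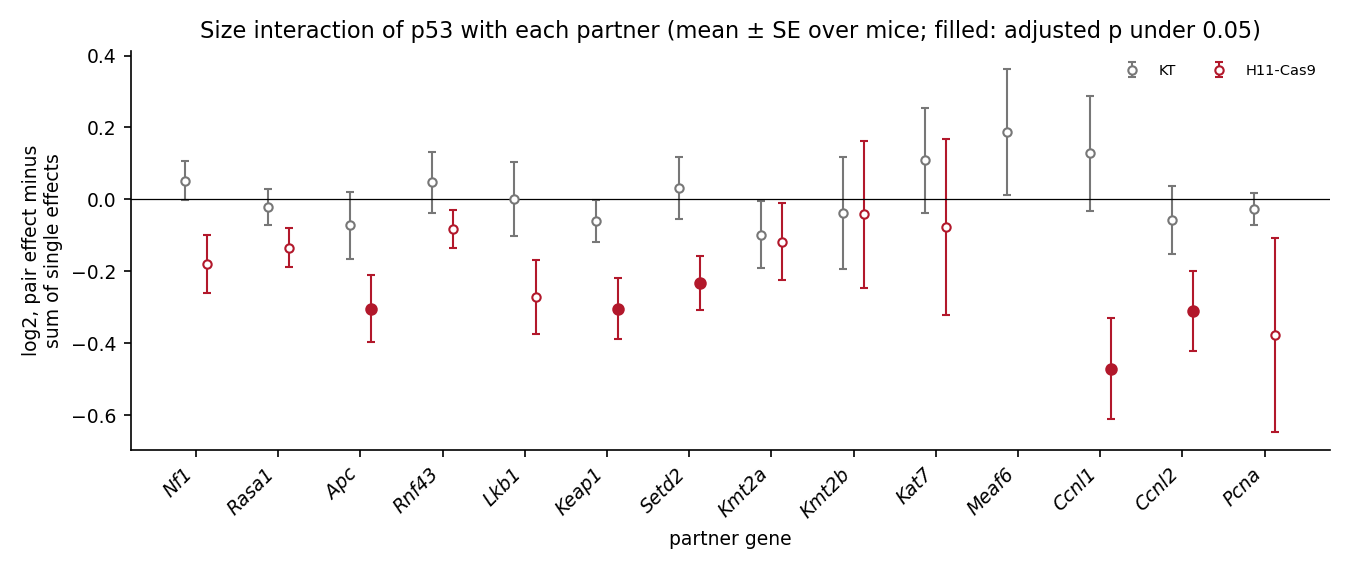
Size interaction of p53 with each partner (y axis, log2, p53 step beside the partner minus p53 effect beside inert, mean ± SE over mice) by partner gene (x axis), in KT and H11-Cas9 mice; filled points passed at an adjusted p under 0.05. All 13 H11-Cas9 values lie below 0, with the 5 filled points between -0.47 and -0.23, while KT values lie on both sides of 0.

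In H11-LSL-Cas9 mice the p53 interactions lay on both sides of 0: 5 of 14 were above and 9 below, with a median of -0.08, and 0 of 14 passed (0% of the 107 pairs passed in either direction, and 0 of the 14 had an unadjusted p under 0.05 by sign flips). The values for Apc and Keap1 were 0.03 ± 0.11 and 0.07 ± 0.17. In KT mice 7 of 14 were above 0 and 7 below, and 0 passed. Over all 134 pairs in KT mice 40 were above 0 and 94 below, with a median of -0.05. A lean below 0 over all pairs was thus also seen without Cas9, and it was smaller than in H11-Cas9 mice.

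Tumour number was read as the log2 ratio of tumours of 2 genotypes in a mouse, with 0.5 added to each, in Cas9 mice minus KT mice, since KT mice give the make-up of the virus pool. Only listed tumours count, and the smallest had 50.1 cells. In H11-Cas9 mice 93.2% of p53/inert and 89.9% of inert/inert tumours had at least 64 cells (94.6% and 93.4% in KT mice). A shift in size across that floor would change number too, and the 2 were not separated. Beside inert, the ratio of p53/inert to inert/inert tumours ran from 1.31 to 1.53 with a median of 1.41 in the 9 KT mice. In H11-Cas9 mice it ran from 0.86 to 3.23 with a median of 1.67. Of these 45 mice, 27 lay above all KT mice and 8 below all of them, so the groups overlapped, and the spread was far wider in the H11-Cas9 mice, which had from 5 to 51 inert/inert tumours, against 86 to 304 in KT mice. The H11-Cas9 mouse with 5, the fewest allowed, gave both the highest ratio of 3.23 and the highest size difference of 1.02 given above. The difference of means was 0.22 ± 0.06 (33 of 45 above the KT mean). It did not pass by the permutation of mouse labels (adjusted p = 0.141, 5.88% of 17 genes passing as higher) and passed when the statistic was studentised, which allows unequal spreads (adjusted p = 0.00456, 23.5% passing as higher). In H11-LSL-Cas9 mice it was 0.20 ± 0.09 (12 of 17 above the KT mean, adjusted p = 0.225, or 0.0885 studentised, with 5.88% of genes passing as higher by each). The reference mattered: relative to all tumours of the mouse in place of inert/inert tumours, the values were 0.63 ± 0.03 and 0.38 ± 0.05, and both passed (permutation of mouse labels, adjusted p = 2.43e-05 and 3.4e-05). By that reference inert/inert tumours took a larger share in the Cas9 groups too. Pooled, they were 1466 of 189387 tumours used in KT, 1107 of 108080 in H11-Cas9 and 400 of 45470 in H11-LSL-Cas9 mice. The values of 0.63 and 0.38 thus include a shift shared with inert/inert tumours.

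Beside partners, the mean step in number on adding p53 was mostly above 0, but few steps passed. In H11-Cas9 mice all 14 means were above 0, between 0.03 beside Kmt2a and 0.37 beside Pcna, with a median of 0.18, while 119 of all 272 steps were above 0. By the permutation of mouse labels 0 of 14 passed (11% of all 272 steps passed as higher), with 2 of 14 at an unadjusted p under 0.05. These were Rnf43 at 0.25 ± 0.06 (34 of 45 mice above the KT mean, adjusted p = 0.0777) and Rasa1 at 0.24 ± 0.07 (39 of 45, adjusted p = 0.0849). Studentised, 6 of 14 passed, with Nf1, Rasa1, Rnf43, Keap1, Setd2 and Pcna as the 6, where 22.8% of all steps did.

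In H11-LSL-Cas9 mice 1 of 14 steps in number passed, beside Rnf43, where 6.25% of 272 steps passed as higher. The ratio of p53/Rnf43 to Rnf43/inert tumours ran from -0.58 to -0.18 with a median of -0.38 in the 9 KT mice and from -0.32 to 0.18 with a median of -0.11 in 17 LSL mice. The ranges overlapped, 9 of 17 LSL mice lay above all KT mice, and all 17 lay above the KT mean. The difference was 0.27 ± 0.05 (adjusted p = 0.00187). Kat7 had the highest value at 0.73 ± 0.24, which passed only when studentised (adjusted p = 0.124, or 0.0266 studentised, with 10.3% of steps passing as higher) and rested on 114 p53/Kat7 tumours in all. Beside Lkb1 and Rasa1 the steps were 0.00 ± 0.07 and 0.01 ± 0.09. Interactions in number passed for 0 of 14 partners in either Cas9 group, by the plain or the studentised permutation. The counts at an unadjusted p under 0.05 were 0 and 0 in H11-Cas9 mice and 0 and 1 in H11-LSL-Cas9 mice, while 7.35% of all 136 pairs passed in H11-Cas9 mice (12.5% studentised) and 0% in H11-LSL-Cas9 mice.

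**Figure D5:**
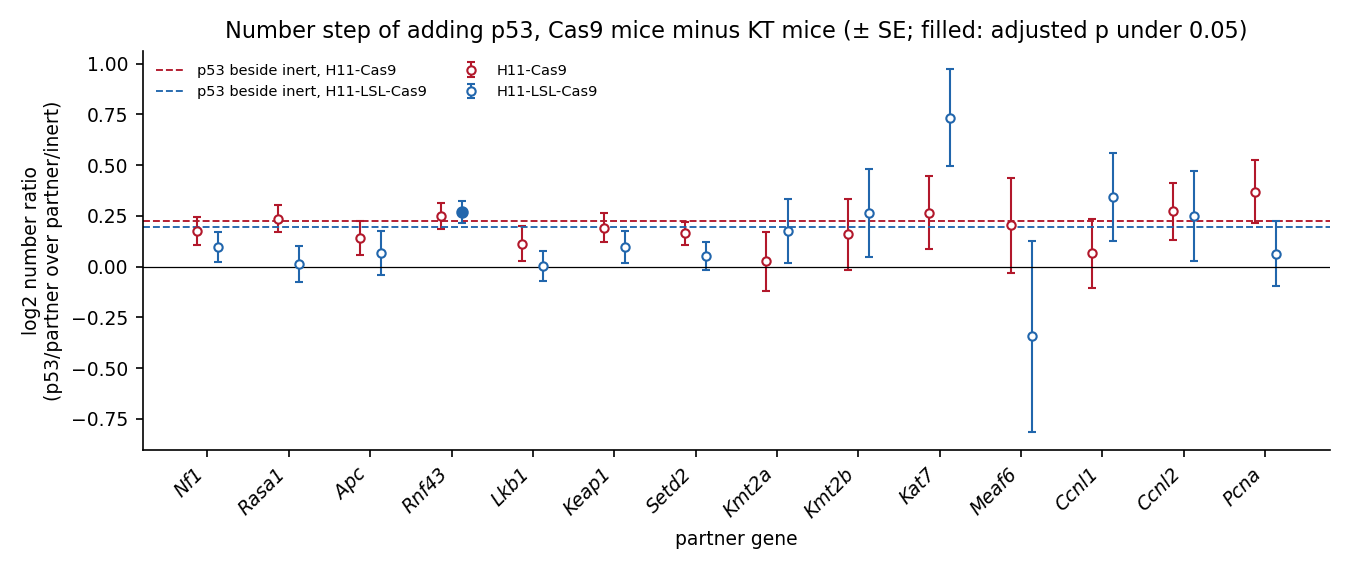
Number step of adding p53 to each partner (y axis, log2 ratio of p53/partner to partner/inert tumours, Cas9 mice minus KT mice, ± SE) by partner gene (x axis), in H11-Cas9 and H11-LSL-Cas9 mice; filled points passed at an adjusted p under 0.05 and dashed lines mark p53 beside inert. All 14 H11-Cas9 points lie above 0, between 0.03 and 0.37, and the single filled point is Rnf43 in H11-LSL-Cas9 mice at 0.27.

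Adding a partner to p53 changed tumour number for 7 of 14 partners in H11-Cas9 mice, by the permutation of mouse labels. The same 7 partners also passed beside an inert guide, so the changes were not particular to p53 tumours. Beside inert, Nf1 gave 0.41, Lkb1 -1.19, Keap1 -0.97, Pcna -4.16 and Apc -0.67. Beside p53, Nf1 raised number by 0.36 ± 0.05 (37 of 45 mice above the KT mean, adjusted p = 0.00344). Lkb1 gave -1.30 ± 0.07, Keap1 -1.01 ± 0.07 and Pcna, which dividing cells need, -4.02 ± 0.15, with all 45 mice below the KT mean for each (adjusted p = 8.77e-05). Apc gave -0.75 ± 0.08 (43 of 45 below, adjusted p = 8.77e-05), and Setd2 (-0.38 ± 0.05) and Kmt2b (-1.13 ± 0.17) passed as decreases too, so that 6 of 14 partners passed as lower and 1 of 14 as higher (22.1% and 11% of all 272 steps). In H11-LSL-Cas9 mice 4 of 14 passed as lower (8.46% of 272 steps) and 0 of 14 as higher. They were Lkb1 at -0.58 ± 0.10, Keap1 at -0.58 ± 0.09, Pcna at -1.83 ± 0.09 and Setd2 at -0.24 ± 0.07. Nf1 at 0.14 ± 0.06, Apc at -0.35 ± 0.11 and Kmt2b at -0.53 ± 0.18 did not pass there by that permutation (adjusted p = 0.251, 0.0871 and 0.162). Studentised, Apc and Kmt2b passed in H11-LSL-Cas9 mice as well, with 6 of 14 lower and 0 of 14 higher (12.5% and 10.3% of 272 steps). In H11-Cas9 mice the studentised test added Kmt2a and Kat7 as lower and Rasa1 as higher. It gave 8 of 14 lower and 2 of 14 higher (33.5% and 22.8% of 272 steps). Differences in number between the Cas9 groups were not tested.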

How the data were processed

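Barcodes with both guides were amplified from 32 µg of lung DNA and sequenced, per the labels' protocols, with 1 library per mouse. The deposited read counts are the raw reads of each tumour. The deposited cell values are a signal, the cells of each tumour scaled by the authors with spike-ins, and earlier steps, such as the read alignment, are not stated. Mice were the replicates. Size was the mean log2 cells of at least 5 tumours of a kind in a mouse, tested by 2-sided sign flips (exact up to 16 mice, otherwise 100000 resamples, with a smallest possible p of 1e-05). Number ratios, with a pseudocount of 0.5, used mice with at least 5 inert/inert tumours and permuted mouse labels. Tests were run on the whole table and adjusted by Benjamini-Hochberg over all comparisons of a kind, with both steps of all pairs adjusted together. Tests needed at least 2 mice. Code was tested on simulated data. Genes named were p53 and its partners other than Rb1, with values in full for those that passed and for the highest and lowest. The members and lists were chosen with earlier results of these data known. The result for 1 partner is not reported here, and it stays in the counts over all genes. Number differences between groups that print a studentised p, and all size differences between groups, divided the mean difference by its SE before permuting. Alternatives changed the size minimum, the tumours per mouse, the size summary, the inert guides, the spike-in total and the reference. The comparisons with safe guides alone as inert and relative to medians over the mouse, and the shares of large tumours, were added after seeing the data. So was a fit of the 39 H11-Cas9 mice whose names begin with LA (p53 beside inert 0.32 ± 0.05). Name letters, whose meaning is not stated, track group and spike-in total: KT mice were SL near 100000 and LA near 300000, the other H11-Cas9 mice CM, and H11-LSL-Cas9 mice HC or MT. Python 3.11.15, numpy 2.4.6, pandas 2.3.3 and matplotlib 3.10.9 were used.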

Additional observations from a re-analysis of the deposited data

Results flagged for a closer look

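The size effect of p53 beside inert differed between H11-Cas9 and KT mice by 0.28, with the test of that difference given above. Adding Keap1 to p53 tumours differed between the same groups by -0.30, and adding Pcna by -0.78 (permutation of mouse labels, adjusted p = 0.0447 and 0.00318).

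Of 50 groups of 4 to 10 mice tested for a sample far from the others, 4 had one, all among size interactions in KT mice; chance flags about 1 in 20 such groups. KT replicate 1 stood high for Apc at 0.61 (next mouse 0.02), Keap1 at 0.34 (next 0.02) and Ccnl1 at 1.18 (next 0.31), and KT replicate 7 for Lkb1 at 0.68 (next 0.16). Without these mice the KT means were -0.16 for Apc, -0.11 for Keap1, 0.00 for Ccnl1 and -0.08 for Lkb1, against -0.07, -0.06, 0.13 and 0.00 with them.

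Constructs with the same p53 guide in both places were left out of all comparisons. In KT mice, where no guide cuts, their tumours were smaller than inert/inert tumours by a mean difference of -0.79 ± 0.11 (n = 9 mice). In H11-Cas9 mice the difference was -0.14 ± 0.13 (27 mice, 264 tumours) and in H11-LSL-Cas9 mice 0.11 ± 0.38 (5 mice, 62 tumours). Both lay above KT, by 0.64 ± 0.17 and 0.89 ± 0.40 (permutation of mouse labels, unadjusted p = 0.00201 and 0.0421). Constructs of p53 beside NE gave 0.33 ± 0.06 in H11-Cas9 mice and 0.17 ± 0.11 in KT mice, a difference of 0.16 ± 0.13 (permutation, p = 0.231). In H11-LSL-Cas9 mice they gave 0.11 ± 0.08, which differed from KT by -0.06 ± 0.14 (permutation, p = 0.683).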

How the results depend on the processing

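The p53 effect on size beside inert in H11-Cas9 mice passed under each alternative fit tried, with values from 0.20 to 0.37 on the log2 scale. It was 0.67 for the 90th percentile of each mouse, which also shifts with its number of tumours. Beside NT or EGFP guides alone, which was not among these fits, it was 0.14 ± 0.10 and did not pass (sign flips, unadjusted p = 0.155). The count of partners beside which adding p53 passed in size (2 as reported) was 1 with a minimum of 200 cells, 1 near a spike-in total of 100000 cells, 0 near 300000 and 0 against KT. The counts of partners that raised or lowered p53 tumours (2 and 1) were 1 and 0 at 200 cells, 0 and 0 within either spike-in total, 1 and 2 with medians, and 0 and 2 against KT. The count of negative interactions (5) was 3 at 200 cells, 9 with same-guide constructs kept, and 0 near 300000, with medians, against KT or relative to the median of all pairs. Keeping same-guide constructs changes only the inert/inert tumours of an interaction, so all interactions in a mouse shift by the same amount. In number, p53 beside inert in H11-Cas9 mice passed studentised at 0.22, with same-guide constructs at 0.25 and relative to all tumours at 0.63, and in H11-LSL-Cas9 mice relative to all tumours at 0.38. Its range was 0.21 to 0.24 and 0.18 to 0.21 without each KT mouse in turn. Number steps adding p53 passed for 6 and 2 partners studentised, and for 0 in H11-LSL-Cas9 mice at 200 cells. The p53 to Nf1 gap was -0.046 with medians, -0.15 near 100000 and -0.12 near 300000, where it no longer passed. The place difference was 0.14 at 200 cells, 0.092 with medians, 0.16 and 0.13 within the totals, each above an unadjusted p of 0.05, and the guide difference was -0.062 at 200 cells and -0.00087 near 300000. The difference between the Cas9 groups passed with same-guide constructs at 0.22, where again only the inert/inert tumours changed. The causes of these changes were not tested.

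No value called as reported changed sign. Values not called changed sign to 0.045 for the Kmt2b size interaction with mice weighted by tumours, and to 0.027 for Nf1, 0.074 for Rasa1, 0.13 for Rnf43 and 0.066 for Kmt2b relative to the median of all pairs. So did the H11-LSL-Cas9 interaction with Rasa1 (-0.16) and the Meaf6 number step and interaction (0.48 and 0.43) at 200 cells, and the H11-Cas9 number step beside Kmt2a (-0.17 near 100000, and -0.014 to 0.081 without each KT mouse) and the Pcna number interaction (-0.061 near 300000). Among 79 partner values called under no setting, 115 of 894 refits changed sign. No paired analysis was possible because the labels carry no replicate numbers shared between groups; sizes were compared within mice throughout. Few tumours per mouse limit Kmt2b, Kat7, Meaf6 and Pcna most.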
